A study of Mus musculus with 37 samples.

Results

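The major histocompatibility complex (MHC) class II genes of brown adipose tissue (BAT) were described in 35 BXD strains and in their parents, C57BL/6J and DBA/2J. The 8 genes are *H2-Ea-ps*, *H2-Eb1*, *H2-Aa*, *H2-Ab1*, *H2-DMa*, *H2-DMb1*, *Cd74* and *Ciita*, out of 24657 genes named on the array. They were selected on their symbol. All 8 were found, and each has a single probe set, so the rule that a probe set be chosen by the highest mean over the BXD strains decided nothing. The levels over strains and between the parents are given as a description, without a test.

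BXD strains are inbred lines bred from crosses of C57BL/6J with DBA/2J, and each holds a fixed mixture of the alleles of both parents. All animals were males on the chow diet Harlan 2018, fasted overnight and sacrificed at 29 weeks according to the labels, and perfused. Every strain is represented by 1 array, hybridised with RNA pooled in equal parts from about 5 mice, so a value is a strain mean and carries no error of its own. The 35 BXD strains are the replicates of all fits, and the parents have 1 array each. Array signals are in rescaled units, in which every array averages 8 with an SD of 2 over its probe sets. As the scale before that step is not given in the sources used here, differences are given in units and not as folds.

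MHC class II molecules carry peptides from ingested proteins to the cell surface, where CD4+ T cells read them. Each is a pair of an alpha and a beta chain: *H2-Aa* and *H2-Ab1* encode the chains of I-A, and *H2-Ea* and *H2-Eb1* those of I-E. *Cd74* encodes the invariant chain, which holds the groove of a new molecule until it reaches the endosome, and *H2-DMa* and *H2-DMb1* encode the chains of H2-DM, which exchanges the last piece of the invariant chain for peptide. *Ciita* encodes the transactivator that switches these genes on together. Dendritic cells, B cells and many macrophages express them, and interferon gamma induces them in other cells. Mice of the b haplotype, to which C57BL/6J belongs, carry a deletion at the start of *H2-Ea* and make no I-E, whereas DBA/2J, of the d haplotype, does. The array lists the gene as *H2-Ea-ps* for this reason.

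In RefSeq's gene order of the mouse assembly GRCm38.p6, 6 of the 8 genes, all but *Cd74* and *Ciita*, lie close together on chromosome 17. Counted from *H2-Ea*, *H2-Eb1* is 2 genes away, *H2-Aa* 3, *H2-Ab1* 4, *H2-DMb1* 10 and *H2-DMa* 12, all on the same side. Strain genotypes were not analysed here, so the strain's allele at H2 was not read, and a transcript level and an allele of a linked gene cannot be told apart from the array alone.

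*Ciita* binds no DNA itself and is held by factors on the X and Y boxes of class II promoters, so these elements are shown for the members whose promoter window (250 bases before to 50 after the start) is in the RefSeq promoter table. Of the 8 genes, 4 are in it. The stretches below end at the Y box, run 5′ to 3′ on the strand of the gene, and have in capitals the letters of the X box (AGNAACNGA) and of the Y box (TGATTGG):
*H2-Eb1*, chr17:34305768-34305812, plus strand: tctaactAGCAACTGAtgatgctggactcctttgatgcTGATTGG
*H2-DMb1*, chr17:34153090-34153134, plus strand: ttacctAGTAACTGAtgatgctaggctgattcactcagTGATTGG
*H2-Aa*, chr17:34287867-34287911, minus strand: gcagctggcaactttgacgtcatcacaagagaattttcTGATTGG
The coordinates are those of GRCm38.p6. In *H2-Eb1* and *H2-DMb1* the X box letters begin 92 and 95 bases before the start. In *H2-Aa* the Y box letters begin 50 bases before the start and no X box of this spelling precedes them. Neither window of *H2-DMa* holds either motif. Over all 32851 promoter windows and both strands, 5.35% hold the X box letters and 7.82% the Y box letters. The X box within 38 bases before a Y box on the same strand was found in 10 windows (0.03%), among them those of *H2-Eb1*, *H2-DMb1* and the related class II gene *H2-Eb2*. *H2-Ab1*, *H2-Ea*, *Cd74* and *Ciita* were not in the table.

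*Ucp1*, the uncoupling protein that marks brown fat, lay between 14.82 and 15.69 in the BXD strains. The background was set at 7.94, the 95th percentile of 1128 probe sets of olfactory receptors, which fat should not express. The arrays of BXD70 and DBA/2J stood apart in *Alb*, the liver transcript of albumin, at 14.96 and 13.93 against a median of 7.85 over the BXD strains. The next highest strain was BXD66 at 11.16. The part of DBA/2J in the results below was not tested, and each fit was also run without each BXD strain in turn.

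*H2-Ea-ps*, the alpha chain of I-E, was found at 2 distant levels. It was at 7.55 in C57BL/6J, under the background, and at 12.14 in DBA/2J, a difference of 4.58 units. In the BXD strains the lowest value was 6.66 (BXD75), the median 7.59 and the highest 13.62 (BXD80). The strains divided into 24 between 6.66 and 8.06 (median 7.53, SD 0.31) and 11 between 11.73 and 13.62 (median 12.55, SD 0.53), with a gap of 3.67 units in which no strain lay. C57BL/6J fell into the lower range and DBA/2J into the upper. The 11 strains of the upper range were, from the lowest, BXD87, BXD56, BXD99, BXD50, BXD69, BXD70, BXD103, BXD68, BXD79, BXD62 and BXD80. Only 2 of the 24 strains in the lower range exceeded the background. By its SD over strains (2.40), *H2-Ea-ps* ranked 3 among 41155 probe sets, and by its difference between the parents 8.

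**Figure D1:**
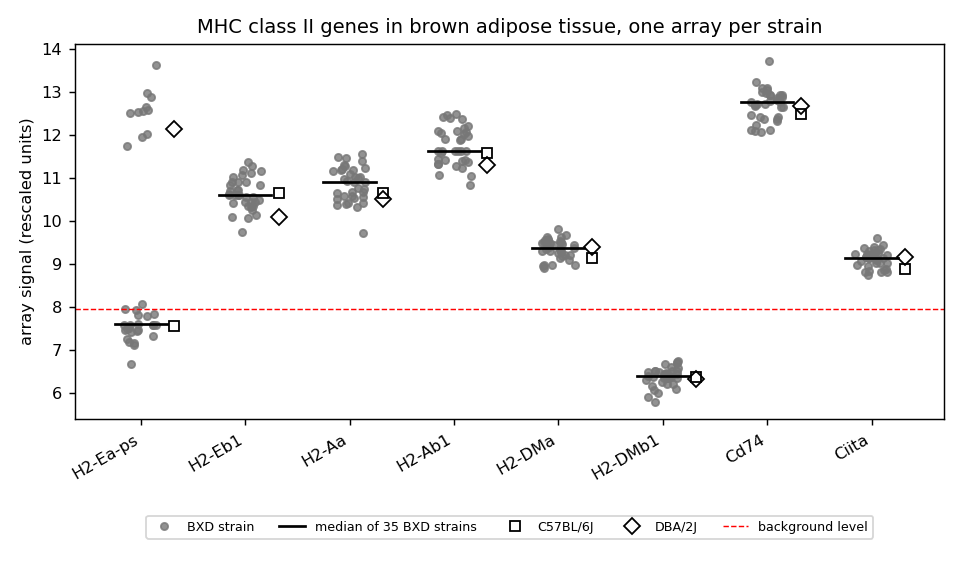
Array signal (rescaled units) of the 8 class II genes. Grey points are the 35 BXD strains, black lines their medians, squares C57BL/6J, diamonds DBA/2J, and the dashed line the background of 7.94. *H2-Ea-ps* has 11 strains above 11.7 and 24 near or under the background, while no other gene has a gap of more than 0.234 units with at least 6 strains on each side, and *H2-DMb1* lies under the background in every strain.

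The other chains showed no such division along with the parents. *H2-Eb1*, which encodes the beta chain that pairs with the product of *H2-Ea*, was at 10.65 in C57BL/6J and 10.08 in DBA/2J. Its lowest BXD value was 9.73 (BXD87), its median 10.60 and its highest 11.36 (BXD80). It was thus well above background in all strains, including the 24 with *H2-Ea-ps* in the lower range. *H2-Aa* was at 10.65 in C57BL/6J and 10.51 in DBA/2J, and ranged from 9.72 (BXD87) through a median of 10.91 to 11.56 (BXD61). *H2-Ab1* was at 11.57 in C57BL/6J and 11.30 in DBA/2J, and ranged from 10.82 (BXD87) through 11.63 to 12.48 (BXD80). For both chains of I-A, 23 of the 35 strains lay above both parents. Of the 8 genes, *H2-Ea-ps* alone differed by at least 1 unit between the parents, where 2.44% of all probe sets did, in either direction.

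*Cd74*, the invariant chain, was at 12.48 in C57BL/6J and 12.66 in DBA/2J. It ranged from 12.06 (BXD95) through 12.75 to 13.71 (BXD80), and 22 strains lay above both parents. *Ciita*, the transactivator, was at 8.88 and 9.16 in the parents and ranged from 8.73 (BXD83) through 9.14 to 9.60 (BXD80). *H2-DMa* was at 9.14 and 9.39 in the parents and ranged from 8.89 (BXD43) through 9.37 to 9.81 (BXD80). *H2-DMb1*, the partner chain of *H2-DMa*, was at 6.36 and 6.31 and ranged from 5.78 (BXD43) through 6.38 to 6.73 (BXD84). None of the 35 strains exceeded the background for *H2-DMb1*, so its values are a weak guide to the level of the gene. Over the 24 strains of the lower range of *H2-Ea-ps*, its Pearson's r was 0.572 with *Cd74* and 0.692 with *H2-Eb1*. Over the 11 of the upper range it was -0.508 and -0.412. This change of sign was not tested.

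The spread over strains was wider for the chains of I-A and I-E and for *Cd74* than for the typical transcript. The SD was 0.37 units for *H2-Eb1*, 0.41 for *H2-Aa*, 0.44 for *H2-Ab1* and 0.36 for *Cd74*, against a median SD of 0.21 over all probe sets. *H2-DMa* (0.23), *H2-DMb1* (0.22) and *Ciita* (0.21) were close to that median. A gap wider than the SD of the strains on either side, with at least 6 strains on each, was met by *H2-Ea-ps* and, narrowly, by *H2-Ab1*. The gap of *H2-Ab1* was 0.234 units against SDs of 0.233 and 0.208, it parted 19 from 16 strains with both parents on the lower side, and it was no longer wide enough after quantile normalization or centring of the arrays.

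The same strains were often at the ends for several genes. BXD80 was highest for *H2-Ea-ps*, *H2-Eb1*, *H2-Ab1*, *H2-DMa*, *Cd74* and *Ciita*, and BXD87 lowest for *H2-Eb1*, *H2-Aa* and *H2-Ab1*. Over the 6 genes above background other than *H2-Ea-ps*, BXD61, BXD80 and BXD84 were each among the 5 highest strains for 5 genes, and BXD87 was among the 5 lowest for all 6. BXD43 and BXD48 were among the 5 lowest for 4.

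Class II genes rose with *Cd74* from strain to strain. In a limma fit over the 35 strains with *Cd74* as covariate, 5 of the other 7 genes rose with it, where 1.82% of all probe sets did. The slope, in units per unit of *Cd74*, was 0.79 ± 0.11 (SE, n = 35) for *H2-Eb1* (adjusted p = 5.18e-05), 0.84 ± 0.13 for *H2-Aa* (adjusted p = 0.00016) and 0.90 ± 0.14 for *H2-Ab1* (adjusted p = 0.000179). It was smaller for *H2-DMa*, at 0.45 ± 0.08 (adjusted p = 0.000543), and for *Ciita*, at 0.36 ± 0.08 (adjusted p = 0.00577). *H2-DMb1*, under background, had a slope of 0.17 ± 0.10 (adjusted p = 0.442), and *H2-Ea-ps* 1.68 ± 1.06 (adjusted p = 0.478). The same 5 genes passed under all 10 alternatives run for this fit and with each strain left out in turn. Among the 10, the average over probe sets could only repeat the main fit, as each of these genes has a single probe set. The removal of BXD70 is also among the strains left out in turn.

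*Cd74* also rose together with most of the macrophage markers and with some markers of dendritic cells and T cells. Of 8 macrophage markers 7 rose with *Cd74*, among them *C1qb*, a chain of complement component C1q (slope 1.03 ± 0.14, adjusted p = 3.08e-05), *Adgre1*, which encodes F4/80 (1.01 ± 0.15, adjusted p = 6.83e-05), and *Csf1r*, the receptor of the macrophage growth factor (0.68 ± 0.11, adjusted p = 0.000179). *Cd163* had a slope of 0.05 ± 0.14. Of 8 dendritic cell markers 4 rose: *Itgax*, which encodes CD11c (0.94 ± 0.18, adjusted p = 0.00261), *Clec9a*, *Flt3* and *Xcr1*. Each of these 4 had a mean under the background. Of 7 B cell markers none passed, with slopes from 0.00 for *Blk* to 0.30 ± 0.11 for *Cd79b*, and 1 of the 7, *Pax5*, had a mean above the background. Of 7 T cell markers *Cd3g* and *Cd4* rose, both with a mean under the background, and 2 of the 7 had a mean above it. Over all probe sets the median slope was 0.00, whereas it was 0.69 over the macrophage list, 0.26 over the dendritic cell list, 0.05 over the B cell list and 0.33 over the T cell list. None of 6 brown fat genes changed with *Cd74*, and *Ucp1* had a slope of 0.05 ± 0.11. In pooled tissue, fewer cells of a type and less RNA per cell cannot be told apart.

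Of 14 further genes of the class II pathway, only *Ctss* rose with *Cd74* at this threshold (1.17 ± 0.23, adjusted p = 0.00298). It encodes cathepsin S, the protease that trims the invariant chain. The factors that occupy the X and Y boxes had slopes near 0, among them *Rfx5* (0.06 ± 0.07), *Rfxank* (-0.01 ± 0.14), *Nfya* (0.08 ± 0.08) and *Nfyb* (-0.08 ± 0.06). Of the class I genes and the immunoproteasome, 3 of 7 rose: *H2-K1* (0.50 ± 0.09, adjusted p = 0.000787), *Psmb8* (0.41 ± 0.09, adjusted p = 0.0058) and *B2m* (0.29 ± 0.07, adjusted p = 0.0269). Of 8 genes induced by interferon gamma, 4 rose, with *Irf1* (0.44 ± 0.08, adjusted p = 0.000883) and *Cxcl10* (0.59 ± 0.12, adjusted p = 0.00379) first. *Igtp* was just past the threshold (adjusted p = 0.0495), and *Gbp3*, *Irgm1* and *Cxcl9* were among those that did not pass.

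Outside the lists, the genes with the smallest p in the fit on *Cd74* included adaptors of leukocyte receptors. The 5 that rose were *Lcp2*, an adaptor of T cell and myeloid receptors (0.76 ± 0.09, adjusted p = 6.49e-06), *D17H6S56E-5*, *Fyb*, an adaptor that binds the product of *Lcp2*, *Myo1g*, a myosin of blood cells, and the chemokine *Cxcl16*. The 5 that fell were *Acss1*, a mitochondrial acetyl-CoA synthetase (-0.65 ± 0.10, adjusted p = 7.08e-05), *Txnrd3*, *Rassf6*, *Arhgap5* and *Herc3*.

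The mean over a list of markers served as a second measure of cell content. With the macrophage list, which ranged from 8.85 (BXD48) through 9.54 to 10.55 (BXD61), 5 of the 8 class II genes rose, where 2.33% of all probe sets did. These were *Cd74* (0.81 ± 0.12 units per unit of the list mean, adjusted p = 3.13e-05), *H2-DMa*, *H2-Aa*, *H2-Ab1* and *H2-Eb1*. Without BXD61 or without BXD87, 3 of 8 passed. With the ranks of the list, 2 passed. With the dendritic cell list, 5 of 8 rose, namely *Cd74*, *H2-Eb1*, *Ciita*, *H2-Aa* and *H2-Ab1*, where 2.3% of all probe sets did. Here 3 passed without BXD61, 1 without the 2 strains farthest from the median, and none when only the 4 markers above background were averaged.

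With the B cell list none of the 8 genes passed, where 0.00486% of all probe sets rose. By the unadjusted p of limma, 5 of the 8 were under 0.05, with slopes of 1.72 ± 0.43 for *H2-Eb1* (adjusted p = 0.125) and 1.78 ± 0.49 for *H2-Aa* (adjusted p = 0.144). With the T cell list 2 of 8 rose, *Cd74* (adjusted p = 0.0234) and *Ciita* (adjusted p = 0.0494), where 0.156% of all probe sets did, and none passed without BXD80, in which this list was highest. With the interferon gamma list, highest in BXD80 too, only *Cd74* rose (adjusted p = 0.0455), where 0.228% of all probe sets did, and it no longer passed without BXD80. By the unadjusted p of limma, 7 of the 8 genes were under 0.05 on the T cell list and 5 on the interferon gamma list. On the macrophage and dendritic cell lists 6 were under it on each. An adjusted p also depends on how many other probe sets a fit calls, so the counts that passed do not rank the lists.

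**Figure D2:**
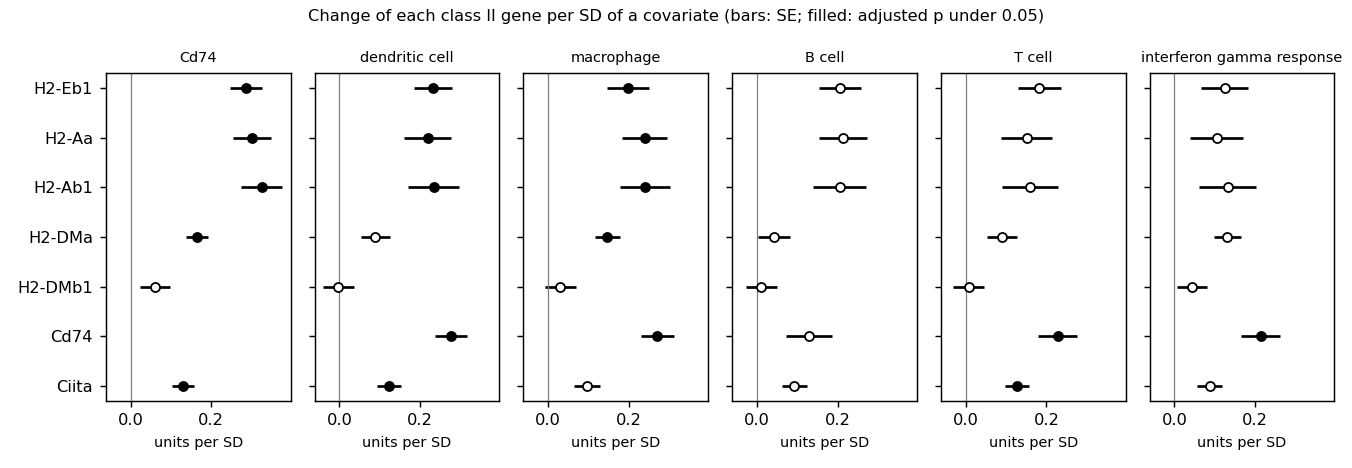
Change of each class II gene other than *H2-Ea-ps*, in units per SD of the covariate named above each panel, from a limma fit over 35 strains. Bars are SE and filled points passed an adjusted p of 0.05. The chains of I-A and I-E and *Cd74* have the widest changes, from 0.20 to 0.33 units per SD of *Cd74*, the dendritic cell list or the macrophage list, and *H2-DMb1* lies near 0. On the B cell list the chains lie between 0.205 and 0.213, with open points, and *Cd74* at 0.129. On the T cell and interferon gamma lists *Cd74* lies at 0.228 and 0.214, and the chains between 0.105 and 0.183.

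Over all strains, no relation of *H2-Ea-ps* to the measures of cell content passed the test after adjustment over all probe sets. Among the strains of its lower range *Cd74* lay between 12.06 and 13.22 (median 12.72), and among those of its upper range between 12.12 and 13.71 (median 12.88), so both spans overlapped. The macrophage list was between 8.85 and 10.55 in the first and between 8.99 and 10.01 in the second. With *H2-Ea-ps* as the covariate, none of the other 7 class II genes passed, where 0.0972% of all probe sets did in either direction. The slope of *Cd74* was 0.04 ± 0.02 units per unit of *H2-Ea-ps* (adjusted p = 0.981), and the largest in size was that of *H2-Ab1* (-0.07 ± 0.03, adjusted p = 0.977), the only one with an unadjusted p under 0.05. As a response, *H2-Ea-ps* passed on none of the lists either. Its smallest adjusted p, 0.198, was on the interferon gamma list (slope 3.40 ± 0.99), whose median was 9.18 in the lower range of *H2-Ea-ps* and 9.59 in the upper. By the unadjusted p of limma, *H2-Ea-ps* was under 0.05 on this list (p = 0.00147) and on the T cell list (p = 0.0278). No gene of the B cell, dendritic cell, macrophage, T cell, interferon gamma, class II pathway, class I or brown fat lists passed in the fit with *H2-Ea-ps* as the covariate.

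Within the upper range *H2-Ea-ps* rose with *Cd74*. The strains form separate clusters, so the relation was computed within each, outside the planned fits. The ranges were drawn on the measured *H2-Ea-ps* values themselves. Over the 11 strains of the upper range Pearson's r was 0.967 (100000 permutations, p = 2e-05, adjusted p = 4e-05 over the 2 ranges) and Spearman's rho 0.882 (permutation p = 0.00064, adjusted p = 0.00128). Without BXD80 and BXD87, the strains farthest from the median of *Cd74*, r was 0.904. In the lower range, where only 2 of 24 strains exceeded the background for *H2-Ea-ps*, r was 0.038, which says nothing of a relation. *H2-Ea-ps* minus *Cd74* lay between -0.51 and -0.02 units in the 11 strains and at -0.53 in DBA/2J, a narrower span than the 1.88 units of *H2-Ea-ps* itself.

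The marker lists moved with *H2-Ea-ps* in these 11 strains as well. Only 2 of the 7 T cell markers and 4 of the 8 dendritic cell markers had a mean above the background. Pearson's r was 0.903 with the T cell list (permutation p = 0.00012, adjusted p = 0.00072 over 6 lists) and 0.819 with the dendritic cell list (permutation p = 0.00283, adjusted p = 0.00849), with rho of 0.809 (permutation p = 0.00398, adjusted p = 0.0239) and 0.664 (permutation p = 0.0306, adjusted p = 0.0918). With the other 4 lists r lay between 0.668 for interferon gamma and 0.721 for class I, with 0.676 for B cells and 0.695 for macrophages (adjusted permutation p between 0.025 and 0.0283), and rho between 0.455 and 0.591 with no adjusted p under 0.12. BXD80 had the highest *H2-Ea-ps* and the highest dendritic cell, T cell, interferon gamma and class I lists. Without the 2 strains farthest from the median of each list, BXD80 among them every time, r was 0.761 for T cells, 0.674 for dendritic cells, 0.424 for B cells, 0.29 for macrophages, 0.071 for class I and -0.078 for interferon gamma, so the last 4 relations rest on those strains. The part of these lists in the relation with *Cd74* was not tested.

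**Figure D3:**
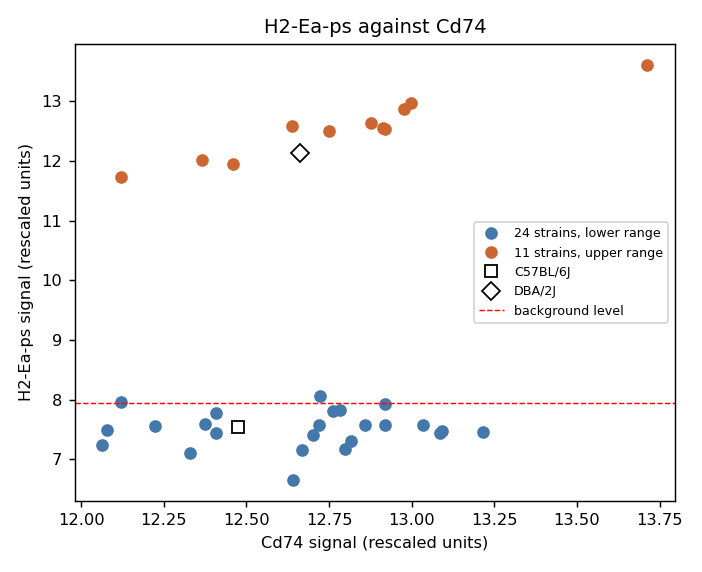
*H2-Ea-ps* against *Cd74*, both in rescaled units, for 24 strains in the lower range of *H2-Ea-ps* (blue), 11 in the upper (orange) and the parents (open symbols), with the background as a dashed line. In the upper range *H2-Ea-ps* rises with *Cd74* (r = 0.967), and in the lower range it stays near or under the background at every level of *Cd74*.

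To separate *H2-Ea-ps* from cell content, it was fitted together with the mean of all B cell, dendritic cell and macrophage markers. Of these, 1 of 7, 4 of 8 and 7 of 8 had a mean above the background, in that order. The joint fit was not run on those markers alone. In this joint fit 6 of the 7 other genes rose with the marker mean, all but *H2-DMb1*, where 2.73% of all probe sets did. The slopes were 1.72 ± 0.20 units per unit of the mean for *Cd74* (adjusted p = 3.03e-07), 1.75 ± 0.28 for *H2-Ab1*, 1.71 ± 0.26 for *H2-Aa*, 1.55 ± 0.24 for *H2-Eb1*, 0.78 ± 0.18 for *H2-DMa* and 0.72 ± 0.17 for *Ciita*. Beside the marker mean, none of the 7 followed *H2-Ea-ps* after adjustment, where 0.105% of all probe sets did in either direction. By the unadjusted p of limma, *H2-Eb1*, *H2-Aa* and *H2-Ab1* were under 0.05, with negative slopes and adjusted p of 0.766, 0.413 and 0.207.

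With *Cd74* in place of the marker mean, these 3 genes passed. *H2-Ab1*, *H2-Aa* and *H2-Eb1* were lower in strains with higher *H2-Ea-ps* at the same level of *Cd74*, 3 of the 6 genes tested, where 0.0996% of all probe sets passed in either direction. None of the 3 passed when both covariates were replaced by their ranks, and all 3 passed under the other alternatives. The slope was -0.11 ± 0.01 units per unit of *H2-Ea-ps* for *H2-Ab1* (adjusted p = 5.79e-07), -0.09 ± 0.01 for *H2-Aa* (adjusted p = 0.000228) and -0.07 ± 0.01 for *H2-Eb1* (adjusted p = 0.00128). Over the 5.03 units between the medians of both ranges of *H2-Ea-ps*, this comes to -0.55 ± 0.06 units for *H2-Ab1*, -0.46 ± 0.07 for *H2-Aa* and -0.37 ± 0.06 for *H2-Eb1*. *H2-DMa* (0.06 ± 0.06), *Ciita* (-0.02 ± 0.06) and the dim *H2-DMb1* (0.13 ± 0.08) did not pass. Beside *H2-Ea-ps*, *Cd74* kept a positive slope in the 5 genes that had risen with it alone, where 1.58% of all probe sets did, and *Ciita* alone no longer passed with the first principal component as a covariate. The slopes were 1.08 ± 0.08 for *H2-Ab1*, 0.99 ± 0.09 for *H2-Aa*, 0.92 ± 0.08 for *H2-Eb1*, 0.44 ± 0.08 for *H2-DMa* and 0.37 ± 0.08 for *Ciita*.

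**Figure D4:**
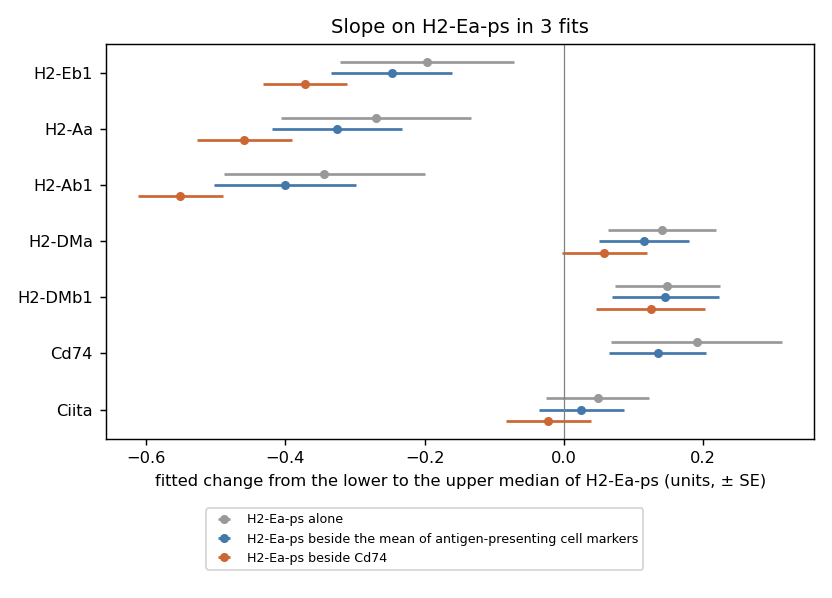
Fitted change of each class II gene from the lower to the upper median of *H2-Ea-ps*, in units ± SE, with *H2-Ea-ps* alone (grey), beside the mean of the antigen-presenting cell markers (blue) and beside *Cd74* (orange). The estimates for *H2-Ab1*, *H2-Aa* and *H2-Eb1* are negative in all 3 fits and passed the test only beside *Cd74*, at -0.55, -0.46 and -0.37 units.

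The values themselves show this shift. *H2-Ab1* minus *Cd74* lay between -1.04 and -0.52 units (median -0.80) in the 24 strains of the lower range of *H2-Ea-ps* and between -1.62 and -1.12 (median -1.31) in the 11 of the upper, without overlap. For *H2-Ab1* only among the 6 genes did the ranges of this difference not overlap, where they did not for 0.00486% of all probe sets, in either direction. Subtracting *Cd74* adds its spread (SD 0.36 units) to probe sets that do not follow it, which makes overlap likelier for them. The share therefore says little of how rare such a shift is. *H2-Eb1* minus *Cd74* lay between -2.20 and -1.52 in the first and between -2.53 and -2.19 in the second, and 1 strain of each range crossed into the other. *H2-Aa* minus *Cd74* lay between -2.12 and -1.45 in the first and between -2.49 and -1.95 in the second, where 1 of 24 and 5 of 11 strains crossed.

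The parents, which were not in the fits, were apart in the same direction for these 3 genes. *H2-Ab1* minus *Cd74* was -0.91 units in C57BL/6J and -1.36 in DBA/2J, *H2-Aa* minus *Cd74* -1.82 and -2.16, and *H2-Eb1* minus *Cd74* -1.82 and -2.58. For *H2-DMa* and *Ciita* the parents differed by 0.06 and 0.09 units on this scale. *H2-DMb1* minus *Cd74* was -6.12 in C57BL/6J and -6.35 in DBA/2J, in the direction of the 3 genes, with *H2-DMb1* under the background in both. With 1 array per parent these differences have no replicate check, and the DBA/2J array is the parental one with high *Alb*. Since *H2-Ab1*, *H2-Aa* and *H2-Eb1* lie beside *H2-Ea*, the level of *H2-Ea-ps* and the haplotype of these genes cannot be told apart, nor can an unequal level and an unequal binding of their alleles to the probes.

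**Figure D5:**
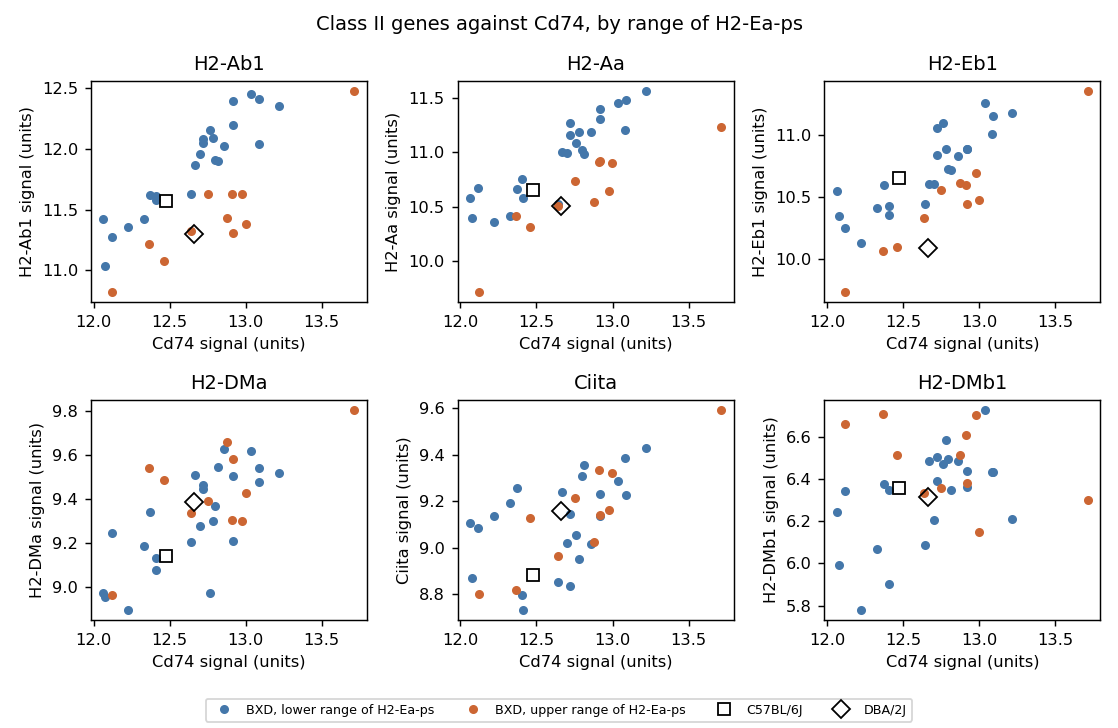
Signal of 6 class II genes against that of *Cd74* (rescaled units), with BXD strains in the lower range of *H2-Ea-ps* in blue, those in the upper range in orange, C57BL/6J as a square and DBA/2J as a diamond. At a given *Cd74* level the orange strains lie mostly below the blue ones for *H2-Ab1*, *H2-Aa* and *H2-Eb1*, without overlap of the difference from *Cd74* for *H2-Ab1*, and are mixed with them for *H2-DMa*, *Ciita* and *H2-DMb1*.

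The transcripts most like *H2-Ea-ps* over strains were for the most part on its chromosome, 17, though mostly not close to it. Of 29 called probe sets whose symbol has a place in RefSeq's gene order, 26 were on this chromosome, where 1162 of 23502 tested probe sets are. Within 50 genes of *H2-Ea* lay 6 of the 29 (20.7%), against 0.57% of all tested. The 5 genes with the smallest p among those that rose were *Gps1* (0.22 ± 0.02 units per unit of *H2-Ea-ps*, adjusted p = 1.93e-09), *Gm10499*, *Gm3417*, *9030025P20Rik* and *Clic1*. *Gps1*, a subunit of the COP9 signalosome, is the one of them that lies on another chromosome, 11. The 5 that fell were *H2-Q10*, a class I gene known from the liver (-0.47 ± 0.04, adjusted p = 3.56e-11), *Abhd16a* (-0.29 ± 0.03, adjusted p = 2.85e-08), *Tsc2*, *Rnps1* and *H2-Ke2*, all on chromosome 17. *H2-Q10* was at 12.06 in C57BL/6J and 10.41 in DBA/2J, and *Abhd16a* at 11.22 and 9.50. The parents were closer for *H2-Ke2* (9.79 and 9.32), *Rnps1* (9.95 and 9.87) and *Tsc2* (11.91 and 11.89). *Clic1*, 39 genes from *H2-Ea*, was at 8.73 and 9.83. *Cd74* itself lies on chromosome 18 and *Ciita* on chromosome 16. Of 1053 placed probe sets that followed *Cd74*, 58 were on chromosome 17 and 13 within 50 genes of *H2-Ea* (1.23%).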

How the data were processed

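Chow-fed BAT was measured on Affymetrix MoGene 2.0 arrays, 1 per strain (35 BXD strains, C57BL/6J, DBA/2J). The table that the authors deposited holds 41345 probe sets on 37 arrays, and its values are scores: each array was rescaled to a mean of 8 and an SD of 2. The submitters' processing notes name Affymetrix Expression Console. The summary method and log base are not given in the sources used here. Rescaling can stretch or shrink an array, and RNA pooling hides the spread between mice. The 190 array controls were left out, which left 41155 probe sets. The number of arrays and the background, not read depth, limit the precision.

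The members and lists were chosen with earlier results of these data known. Each covariate (a gene, or the mean of a marker list) was fitted across all probe sets except its own with limma 3.58.1 (lmFit and eBayes, R 4.3.3) over the 35 BXD strains, with Benjamini-Hochberg adjustment over all probe sets and a threshold of 0.05. SE are the moderated ones. There were 9 such fits, and 2 more, with *H2-Ea-ps* and *Cd74* together, were made into results of their own after the data had been seen. The step was tested on simulated data. The relation of *H2-Ea-ps* with *Cd74* within each of its ranges was not among the planned fits. The relations of *H2-Ea-ps* with marker lists in its upper range were added after the data had been seen. Correlations used 100000 two-sided permutations (scipy 1.17.1, Python 3.11.15, numpy 2.4.6, pandas 2.3.3). Figures were drawn with matplotlib 3.10.9. The genes named are the 8 members, genes of the lists, and the 5 symbols with the smallest p in each direction for *Cd74* and *H2-Ea-ps*. *Clec9a*, *Pax5* and other single markers are named from the lists. *Cd247*, *Marchf1* and *H2-D1* were not found by symbol. The values of 1 gene of the lists are not reported here on their own. Probe sets have no coordinates here, as their build is not stated.

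The alternatives were quantile normalization, centring on the median, the inclusion of both parents, the removal of BXD70, of the 2 strains farthest from the median of the covariate and of each strain in turn, ranks of the covariate, the average of all probe sets of a gene, a filter on dim probe sets, the first principal component as a covariate, markers above background only, *Cd74* in place of the marker mean, and an adjusted p of 0.01.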

Additional observations from a re-analysis of the deposited data

How the results depend on the processing

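No paired analysis was possible because each strain has a single array. The counts of class II genes that rose with *Cd74* (5 of 7), followed *H2-Ea-ps* alone (0 of 7) or followed the B cell list (0 of 8) were the same under every alternative and with each strain left out. In the joint fit, 0 genes followed *H2-Ea-ps* under every alternative run except *Cd74* in place of the marker mean, which gave 3, and 5 or 6 followed the marker mean. Markers above background only was run for the fits on a single list and not for the joint fit. Beside *Cd74*, the 3 genes that followed *H2-Ea-ps* fell to 0 when ranks were used for both covariates. The cause was not tested. The other 9 alternatives and each strain left out gave 3. Of the 5 genes that followed *Cd74* beside *H2-Ea-ps*, 4 passed with the first principal component, without *Ciita*.

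The counts with cell lists were less stable. For the dendritic cell list (5), the count was 1 without the 2 strains farthest from the median, 2 with the first principal component, 3 at an adjusted p of 0.01, 0 with markers above background only, and 3 to 5 with a strain left out. For the macrophage list (5), it was 2 without the 2 farthest strains, 2 with ranks, 3 at an adjusted p of 0.01, 4 with both parents, 4 with the first principal component, 6 without dim probe sets and 3 to 5 with a strain left out. For the T cell list (2), it was 1 after quantile normalization, 0 after centring, without the 2 farthest strains, with ranks, with the first principal component, at an adjusted p of 0.01 and with markers above background only, and 0 to 2 with a strain left out, where 23 of 35 strains changed a call. For the interferon gamma list (1), it was 0 after centring, without the 2 farthest strains, with ranks and at an adjusted p of 0.01, 2 without dim probe sets, and 0 to 2 with a strain left out, where 24 of 35 strains changed a call. The cause of these shifts was not tested. The number of genes with separate ranges fell from 2 to 1 after quantile normalization and after centring.

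Of 889 values of single genes, 15 changed sign, all of genes that passed in neither setting. With *Pax5* as the only B cell marker above background, the slope was 1.83 for *H2-Ea-ps*, -0.37 for *H2-Eb1*, -0.39 for *H2-Aa*, -0.69 for *H2-Ab1* and -0.0398 for *H2-DMb1*, and with ranks of the B cell list -0.000136 for *H2-DMb1*. On the dendritic cell list *H2-DMb1* turned to 0.12 without the 2 farthest strains, 0.000931 with ranks, 0.0323 with all probe sets of a gene averaged and 0.0803 with the first principal component, and on the T cell list to -0.00142 after centring. *Ciita* on *H2-Ea-ps* turned to -0.00767 alone and -0.00455 in the joint fit without the 2 farthest strains, -0.000629 with ranks and -0.00428 with *Cd74* in place of the marker mean.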

Other observations

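The parents also differed in the marker lists. The mean of the macrophage list was 9.32 units in C57BL/6J and 9.84 in DBA/2J, and that of the dendritic cell list 8.19 and 8.53. Among single markers, *Itgax* was at 7.10 in C57BL/6J and 8.97 in DBA/2J, and *Cd68*, a lysosomal protein of macrophages, at 9.57 and 11.05. *Ctss*, the protease that acts on the invariant chain, was at 8.83 and 10.22. Of the class II genes, *H2-Ea-ps*, *Cd74*, *H2-DMa* and *Ciita* were higher in DBA/2J than in C57BL/6J and *H2-Eb1*, *H2-Aa*, *H2-Ab1* and *H2-DMb1* lower. The interferon gamma list was at 9.32 in C57BL/6J and 9.07 in DBA/2J, with *Cxcl9* at 11.41 and 10.49. These values rest on 1 array per parent and were not tested, and the DBA/2J array also held *Alb* at 13.93.

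BXD80 and BXD61, both high in class II genes, had the 2 highest means of the dendritic cell list (8.72 and 8.68) and of the macrophage list (10.01 and 10.55) among the 35 strains. Other strains high in class II genes did not share this. BXD84, among the 5 highest for as many genes, had 8.438 and 9.844 for these 2 lists. BXD49, among the 5 highest for 4 genes, had 8.307 and 9.502, under the medians of 8.309 and 9.536. BXD80 also had the highest T cell list (8.44 against a median of 7.64) and interferon gamma list (10.57 against 9.23) of the 35 strains. In BXD61 the T cell list was 7.72 and the interferon gamma list 9.89.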
